A study of Arabidopsis thaliana with 24 samples.

Results

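The vq1vq10 double mutant of Arabidopsis thaliana was compared with the vq1 single mutant after both had been kept at 1% oxygen for 4 h. The comparison takes the 3 hypoxic vq1vq10 libraries against the 3 hypoxic vq1 libraries, 6 of the 24 libraries of the series, over all genes. The whole series holds Col-0 and the vq1, vq10 and vq1vq10 lines, each at 21% and at 1% oxygen, with 3 independent biological replicates per group. Seedlings grew for 14 days at 21% oxygen on MS medium with 1% sucrose, in 16 h of light of 150 µmol photons per square metre and second and 8 h of darkness. On day 15, from 4 h after lights on (ZT 4), hypoxic seedlings were moved to 1% oxygen and normoxic ones stayed at 21%, both for 4 h in dim light of about 30 µmol. Both groups compared here carry the vq1 label, and the vq1vq10 group carries the vq10 label as well, so that the contrast is the vq10 label added to a vq1 background. The series title calls the mutants hypermorphic. The sources used here do not give the nature of the alleles, the origin of the lines or the number of seedlings per sample. RNA came from whole seedlings, so fewer cells of a type and less RNA per cell cannot be told apart in any value below.

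VQ proteins are small plant proteins named after a short valine and glutamine motif, through which they bind WRKY transcription factors and modify their activity in defence and stress responses. Under low oxygen plants lose most respiratory ATP production, ferment pyruvate to ethanol, lactate and alanine, and induce a core set of genes through group VII ERF factors, which the N-degron pathway degrades when oxygen is present. Glucosinolates, which recur below, are the sulfur-rich defence compounds of Arabidopsis and its relatives.

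Upstream windows of 4 genes on which the results turn are shown: VQ10 itself, the first gene of the run of silent genes beside it, the gene with the largest called increase, and the transporter gene that represents aliphatic glucosinolate synthesis among the called genes. Each window is the 200 bases before the annotated gene start, 5′ to 3′ on the strand of the gene, from the RefSeq TAIR10.1 assembly, and capitals mark the W-box core TTGAC, the WRKY binding core, or its reverse complement GTCAA. The windows lie at chr1:29502306-29502505 on the plus strand for AT1G78410 (VQ10), at chr1:29504332-29504531 on the plus strand for AT1G78420, at chr5:8234151-8234350 on the minus strand for AT5G24240 and at chr4:7210607-7210806 on the plus strand for BAT5 (AT4G12030).
VQ10: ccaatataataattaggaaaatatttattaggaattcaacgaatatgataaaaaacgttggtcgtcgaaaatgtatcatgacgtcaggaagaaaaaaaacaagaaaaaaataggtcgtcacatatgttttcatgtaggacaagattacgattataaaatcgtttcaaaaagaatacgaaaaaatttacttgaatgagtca
AT1G78420: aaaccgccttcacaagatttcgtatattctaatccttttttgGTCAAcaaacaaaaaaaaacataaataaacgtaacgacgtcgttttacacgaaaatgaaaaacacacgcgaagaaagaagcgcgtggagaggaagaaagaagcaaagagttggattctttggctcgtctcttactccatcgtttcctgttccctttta
AT5G24240: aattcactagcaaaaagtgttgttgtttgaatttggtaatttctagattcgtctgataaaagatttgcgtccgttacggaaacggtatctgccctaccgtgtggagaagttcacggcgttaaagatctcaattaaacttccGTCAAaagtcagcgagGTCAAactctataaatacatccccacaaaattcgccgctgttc
BAT5: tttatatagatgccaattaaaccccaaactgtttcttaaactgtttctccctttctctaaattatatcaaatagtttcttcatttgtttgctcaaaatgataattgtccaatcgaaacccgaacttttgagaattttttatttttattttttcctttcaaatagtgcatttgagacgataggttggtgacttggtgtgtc
The VQ10 and BAT5 windows hold 0 W-box cores, the AT1G78420 window 1 and the AT5G24240 window 2. A core stood on either strand in 9409 of the 23929 windows of this length (39.3%), in 7 of the 16 genes called higher (43.8%), in 5 of 18 aliphatic glucosinolate genes (27.8%) and in 11 of 37 hypoxia core genes (29.7%). The G-box CACGTG, which reads the same on both strands, stood in 6.20% of all windows and in 0 of the 16 genes called higher. These are matches of letters in a fixed window and say nothing of binding.

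The 6 libraries held 21323353 to 22553675 reads assigned to genes, of which 11.5 to 13.6% fell on the 10 top genes of each library. In a principal component analysis of the log2 CPM of these 6 libraries (CPM, reads per 1000000 reads after scaling), the leading axis carried 30.5% of the variance. It placed the vq1 libraries at -36.5, -11.6 and -17.5 and the vq1vq10 libraries at 17.8, 27.4 and 20.3, so the genotypes lay on opposite sides. TMM scaling factors were 0.9131 to 0.9355 in vq1 and 0.9619 to 1.018 in vq1vq10 and differed in level between the genotypes. Scaling by total reads in place of TMM moved the median log2 change of all tested genes from -0.01 to 0.09, so changes of about that size depend on the scaling. In the text, values of a group are given in the order of replicates 1, 2 and 3, and "called" means an adjusted p under 0.05 in edgeR's quasi-likelihood test with Benjamini-Hochberg adjustment over all 20110 tested genes.

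Few genes separated the double mutant from vq1 under hypoxia. Of 20110 genes 2032 had an unadjusted p under 0.05 (10.1%). After adjustment 23 were called, which is 0.114%, with 16 higher (0.0796%) and 7 lower (0.0348%) in vq1vq10. The labels do not state a pairing of the libraries, but same-numbered libraries of both genotypes deviated together to a small degree. A fit with the replicate number as a block called 46 genes, 30 higher and 16 lower. With total reads in place of TMM, 38 genes were called higher and 7 lower, and 22 of the 23 genes remained. Among the 23 genes, 11 differed at least 2-fold, 5 of them higher and 6 lower, and for all 23 the 3 libraries of one genotype lay apart from the 3 of the other. That separation alone is common, since 8.21% of all tested genes had every vq1vq10 library above every vq1 library and 10.5% had every one below. Of the 6 genes called at least 2-fold lower, 5 were neighbours on chromosome 1, directly beside VQ10. The other 18 called genes comprised 16 higher and 2 lower, and 12 of the 23 were called again in each of the 6 fits that left out 1 of the 6 libraries.

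**Figure D1:**
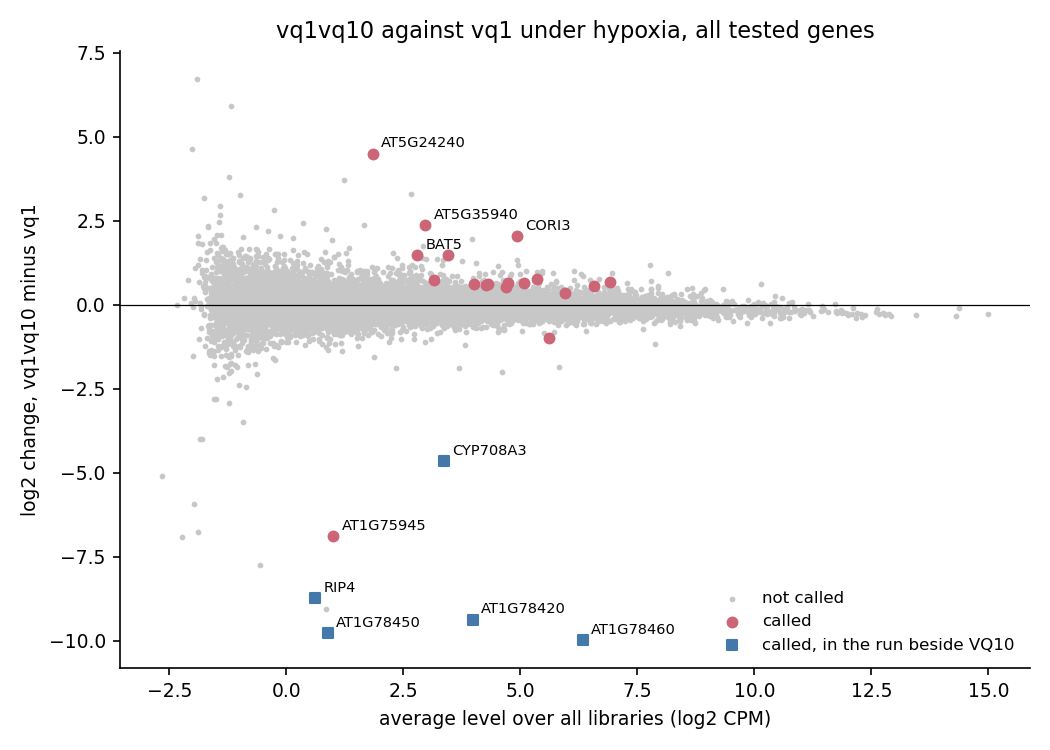
Log2 change between vq1vq10 and vq1 under hypoxia (vertical axis) against the average level over all libraries in log2 CPM (horizontal axis) for the 20110 tested genes; grey points were not called, red points were called and blue squares were called and lie in the run beside VQ10. The 5 blue squares lie between -9.97 and -4.65, and the called genes outside the run are mostly above 0, the highest being AT5G24240 at 4.50.

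The 2 genes that name the mutants were low. VQ10 (AT1G78410, chr1:29502506-29503938, plus strand) had 10, 17 and 7 reads in vq1 and 34, 23 and 27 reads in vq1vq10, or 0.514, 0.859 and 0.350 CPM against 1.52, 1.05 and 1.25 CPM. Each vq1vq10 library was above each vq1 library, but the log2 difference of 1.14 ± 0.40 (SE, n = 3 against 3) was not called (edgeR adjusted p = 0.34; 0.25 with the replicate block). The same genotype pair at 21% oxygen differed in VQ10 by 2.57 on the log2 scale (edgeR adjusted p = 0.0036), and so did vq10 against Col under hypoxia, by 2.57 (edgeR adjusted p = 0.023). VQ1 (AT1G17147, chr1:5863109-5864059, minus strand), whose label both lines carry, had 4.57, 4.80 and 3.35 CPM in vq1 and 4.6, 3.34 and 3.32 CPM in vq1vq10. These ranges overlapped, with a log2 difference of -0.17 ± 0.27 (edgeR adjusted p = 0.87). Of the 5 annotated genes before and the 5 after VQ1 none was called, with log2 changes from -0.11 (CAT8, a cationic amino acid transporter) to 0.50 (GSTU24, a glutathione transferase) among the 9 that were tested.

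Next to VQ10, a stretch of chromosome 1 gave almost no reads in the double mutant. It runs from AT1G78420 to AT1G78490 (CYP708A3), chr1:29504532-29530669 or 26.1 kb, begins 593 bases past the end of VQ10 and holds 9 annotated protein-coding genes, of which 7 were tested and 5 called. Summed over the 9 genes, the vq1 libraries held 3796, 3747 and 3674 reads and the vq1vq10 libraries 20, 28 and 14 reads. No replicate of one genotype came near the range of the other. Hypoxic Col libraries held 3477, 4474 and 4073 reads, so vq1 was at the Col level and vq1vq10 was the group that stood apart. The hypoxic vq10 libraries held 15, 270 and 297 reads, and the normoxic ones 6, 14 and 794, so that replicates 2 and 3 of hypoxic vq10 and replicate 3 of normoxic vq10 lay between the other vq10 libraries and Col.

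Gene by gene, the run read as follows. AT1G78420, a RING/U-box protein gene of the kind that encodes ubiquitin ligases, had 723, 648 and 631 reads in vq1 and 0, 2 and 1 in vq1vq10, a ratio of 742 (95% counting interval 254 to 3600; edgeR adjusted p = 1.7e-04). AT1G78460, one of a pair of SOUL heme-binding protein genes, had 2458, 2550 and 2534 reads against 1, 6 and 1 and was the most abundant gene of the run in vq1 (log2 change -9.97 ± 1.36, edgeR adjusted p = 4.7e-04). Its neighbour AT1G78450, the other SOUL gene, had 75, 105 and 112 reads against 0 in all 3 vq1vq10 libraries, which is at least 108-fold lower when the double mutant is set to a floor of 3 reads over its libraries. RIP4 (AT1G78430), a ROP GTPase interactive partner, had 58, 47 and 38 reads against 0 and was at least 53.0-fold lower by the same floor. CYP708A3, a cytochrome P450, kept some signal, with 23.6, 18.3 and 16.9 CPM in vq1 and 0.848, 0.915 and 0.554 CPM in vq1vq10 (log2 change -4.65 ± 0.55, edgeR adjusted p = 1.7e-04). The gibberellin 2-oxidase gene ATGA2OX1, with 5, 10 and 5 reads against 0, was at least 7.41-fold lower and not called (edgeR adjusted p = 0.13). AT1G78476, with 13, 15 and 8 reads against 0, was at least 13.3-fold lower and was called only with the replicate block (edgeR adjusted p = 0.072 without it and 0.040 with it). It overlaps AT1G78480 on the other strand over 784 bases, and the sources used here do not say whether reads were counted by strand.

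The far edge of the run is not fixed by these reads, because the next gene, AT1G78500, had 0, 1 and 0 reads in vq1 and 0 in all 3 vq1vq10 libraries. The gene after it, the solanesyl diphosphate synthase gene SPS1, had 931, 893 and 964 reads in vq1 and 889, 740 and 967 reads in vq1vq10, and these overlapped. On the VQ10 side, the glutathione transferase gene GSTU19 had a log2 difference of 0.09 ± 0.08. Its neighbour GSTU20 had 510, 382 and 488 reads against 985, 973 and 1055, higher in every vq1vq10 library but not called (0.97 ± 0.31, edgeR adjusted p = 0.27). At 21% oxygen, in other libraries of the same lines, the run held 5774, 6115 and 5876 reads in vq1 and 6, 13 and 24 in vq1vq10, and all 5 called genes were called there too.

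**Figure D2:**
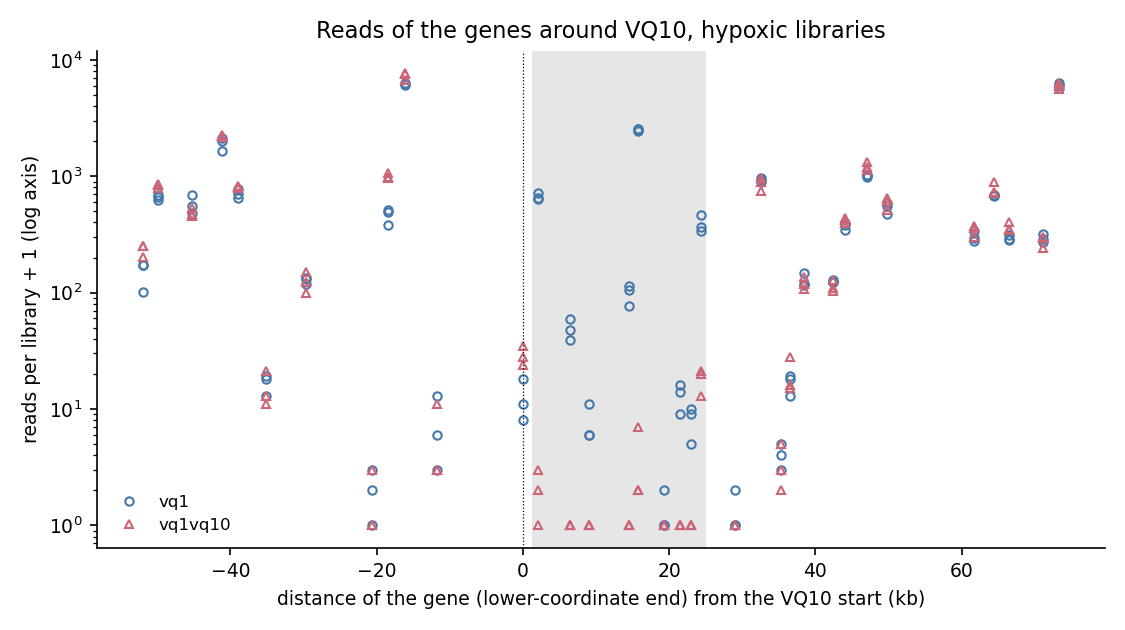
Reads per library plus 1 (vertical log axis) for the genes around VQ10, placed by the distance of their lower-coordinate end from the VQ10 start in kb (horizontal axis), in the 3 hypoxic vq1 libraries (blue circles) and the 3 hypoxic vq1vq10 libraries (red triangles); the shaded band is the run. Inside the band the vq1vq10 libraries lie far below vq1, while outside it the genotypes lie close together for most genes. VQ10, GSTU20 and UGT85A4 are among the genes outside it with more reads in every vq1vq10 library. The reads are not scaled for library size.

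Outside the run, the largest increase was in AT5G24240, annotated as a phosphatidylinositol 4-kinase gamma-like protein, a family related to lipid kinases. It had 0.205, 0.303 and 0.200 CPM in vq1 and 6.51, 3.34 and 6.51 CPM in vq1vq10. The groups did not overlap, and the log2 change was 4.50 ± 0.48 (edgeR adjusted p = 7.1e-05). It was also called in the same direction between the genotypes at 21% oxygen (log2 change 3.75) and between vq10 and Col under hypoxia (2.93). AT5G35940, a mannose-binding lectin gene of the jacalin type, had 1.69, 4.35 and 4.89 CPM in vq1 and 16.0, 21.1 and 19.5 CPM in vq1vq10. The groups were well apart (2.37 ± 0.31, edgeR adjusted p = 2.3e-04), and the change at 21% oxygen was 2.49 and also called.

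The next 5 called genes encode enzymes or transporters. CORI3 (AT4G23600), a jasmonate-responsive gene of the tyrosine transaminase family encoding a cystine lyase, had 21.0, 22.6 and 16.0 CPM in vq1 and 97.1, 61.7 and 85.7 CPM in vq1vq10. Its groups were far apart, but its libraries spread, and the change of 2.04 ± 0.41 was only just called (edgeR adjusted p = 0.0499997); it was lost in each fit that left out 1 library and had an adjusted p of 0.014 with the replicate block. BAT5 (AT4G12030, chr4:7210807-7213376, plus strand), the plastid transporter of keto acids in methionine-derived glucosinolate synthesis, had 3.49, 2.37 and 2.35 CPM in vq1 and 7.59, 7.0 and 8.31 CPM in vq1vq10, with a change of 1.48 ± 0.23 (edgeR adjusted p = 0.0026). AT2G36580, a pyruvate kinase gene of glycolysis, had 121, 107 and 118 CPM against 167, 181 and 158 CPM. This modest shift of 0.55 ± 0.11 was called (edgeR adjusted p = 0.035) but was lost whenever 1 library was left out. AT5G27410, a PLP-dependent aminotransferase-like gene, had 14.0, 14.7 and 13.4 CPM against 21.9, 20.6 and 21.2 CPM (0.60 ± 0.10, edgeR adjusted p = 0.0097); it shares 2170 bases with AT5G27400 on the same strand, so its counts are uncertain. ABCD2 (AT1G54350), an ABC transporter gene, had 61.4, 63.3 and 60.8 CPM against 82.3, 73.9 and 81.9 CPM, the smallest change called (0.36 ± 0.07, edgeR adjusted p = 0.035), and shares 1823 bases with a noncoding RNA on the other strand.

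Among cell surface and wall genes, the receptor-like protein gene RLP19 (AT2G15080) had 24.1, 24.8 and 20.8 CPM in vq1 and 40.1, 36.9 and 40.9 CPM in vq1vq10 (0.76 ± 0.10, edgeR adjusted p = 3.7e-04). AT1G09910, a rhamnogalacturonate lyase gene of pectin breakdown, had 19.3, 16.8 and 17.4 CPM against 28.3, 28.6 and 27.6 CPM (0.66 ± 0.11, edgeR adjusted p = 0.0063). For both genes the groups did not overlap, and RLP19 was called in all 6 fits with 1 library left out.

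Of genes with nuclear or membrane roles by annotation, AT5G25520, with SPOC and TFIIS-type elongation factor domains, had 20.5, 21.5 and 20.9 CPM in vq1 and 33.2, 30.6 and 34.5 CPM in vq1vq10, a change of 0.64 ± 0.08 (edgeR adjusted p = 1.7e-04). AT2G31440, similar to the gamma-secretase subunit APH1, had 13.4, 14.6 and 14.5 CPM against 21.4, 21.9 and 22.2 CPM (0.62 ± 0.12, edgeR adjusted p = 0.032). AT1G24290, an AAA-type ATPase gene, had 5.39, 4.90 and 6.09 CPM against 8.43, 9.33 and 9.74 CPM (0.75 ± 0.15, edgeR adjusted p = 0.038). The groups of all 3 genes were apart, but the last 2 were lost in every fit with 1 library left out. AT5G25520 and AT1G24290 share 634 and 885 bases with genes on the other strand.

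Among the called genes, 2 belong to the core set that hypoxia induces in Arabidopsis. AT1G33055, of unknown function, had 37.6, 38.5 and 42.7 CPM in vq1 and 60.0, 54.2 and 56.7 CPM in vq1vq10 (0.52 ± 0.08, edgeR adjusted p = 0.0024). The adjoining AT1G33050, also uncharacterized, had 123, 113 and 106 CPM against 193, 180 and 171 CPM (0.67 ± 0.12, edgeR adjusted p = 0.025). These neighbours share 225 bases on the same strand, so their changes are not independent measurements. AT5G44730, a haloacid dehalogenase-like hydrolase gene of the core set, had 17.5, 17.7 and 22 CPM against 31.1, 28.9 and 27.4 CPM and was only just called (0.61 ± 0.12, edgeR adjusted p = 0.0499997). The uncharacterized AT1G63530 had 9.50, 9.15 and 6.09 CPM against 30.0, 21.1 and 17.2 CPM (1.47 ± 0.29, edgeR adjusted p = 0.041). Its groups were apart, and it was called in 1 of the 6 fits with 1 library left out, as was AT5G44730.

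Outside the run, 2 called genes were lower in the double mutant. AT1G75945, which encodes a small uncharacterized protein, had 5.65, 5.71 and 6.74 CPM in vq1 and 0, 0 and 0.138 CPM in vq1vq10. With 358 reads against 3 in total, the ratio was 133 (95% counting interval 45.0 to 647; edgeR adjusted p = 2.1e-04). Hypoxic Col libraries had 0.262, 0.355 and 0.0455 CPM, so here vq1 was the group that stood apart. AT2G28780, annotated as an efflux pump subunit for hydroxybenzoic acid, had 70.6, 73.6 and 74.5 CPM in vq1 and 34.1, 42.7 and 34.1 CPM in vq1vq10 (-0.98 ± 0.19, edgeR adjusted p = 0.035). It was lost in every fit with 1 library left out and with total reads in place of TMM (adjusted p = 0.062). The genes next in order of p among those lower in vq1vq10 were not called. The nearest to the threshold was COR413-PM2, a cold-regulated plasma membrane protein gene, with 63.6, 57.3 and 55.7 CPM against 46.9, 44.2 and 42.9 CPM (-0.40 ± 0.09, edgeR adjusted p = 0.093; 0.046 with the replicate block).

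**Figure D3:**
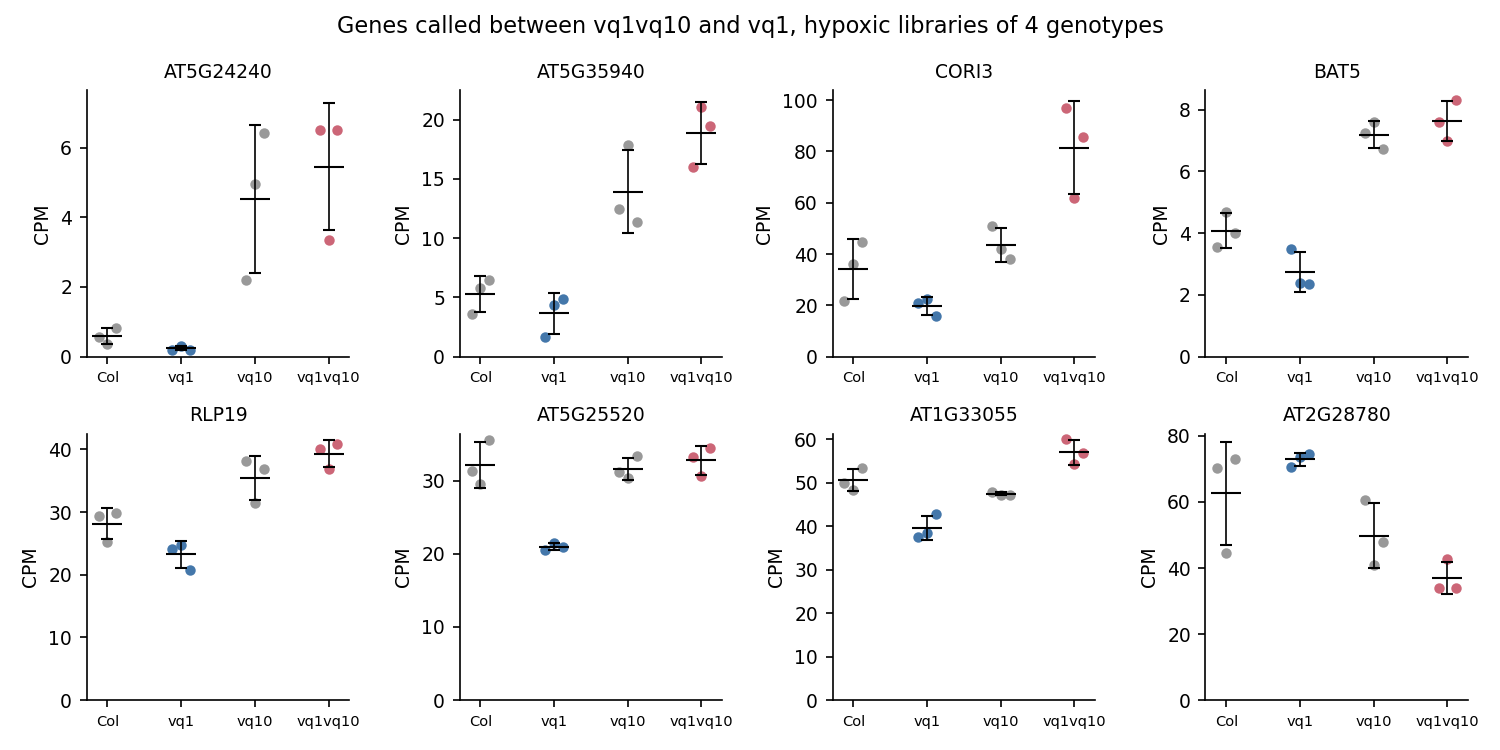
CPM (vertical axes, from 0) of 8 called genes in the hypoxic libraries of Col, vq1, vq10 and vq1vq10 (horizontal axes); points are libraries and lines the mean ± SD of 3. AT5G24240 and BAT5 are high in both genotypes that carry the vq10 label, whereas for AT5G25520 vq1 lies below the other genotypes.

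Set against Col under hypoxia, with which these contrasts share the vq1 or the vq1vq10 libraries, the 18 called genes outside the run fell into different patterns. The log2 distance from Col was larger in vq1 for 10 of them and in vq1vq10 for 8. The vq1 libraries lay below and the vq1vq10 libraries above all Col libraries for 8 genes, among them BAT5, RLP19, AT5G24240, AT1G33055 and AT2G36580. The 18 genes were called on a gap between vq1 and vq1vq10 in the same libraries, which favours Col lying in between. The share of all tested genes with each pattern was not counted. Against Col, BAT5 had an edgeR adjusted p of 0.88 in vq1 and 0.21 in vq1vq10, and RLP19 0.88 and 0.083. Of the 8 genes only AT5G24240 was called against Col, in vq1vq10 (edgeR adjusted p = 2.1e-04). For 5 genes vq1 lay below Col while vq1vq10 overlapped with it: AT5G25520, AT1G09910, AT2G31440, AT1G24290 and ABCD2. All 5 were called for vq1 against Col and none for vq1vq10 against Col. AT5G25520 gave -0.62 for vq1 against Col and 0.03 for vq1vq10 against Col, and AT1G09910 gave -0.72 and -0.06. AT5G35940 and CORI3 showed the other arrangement, with vq1 overlapping Col and vq1vq10 above it, at 1.83 and 1.25 (edgeR adjusted p = 0.005 and 0.36).

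A comparison that shares no library with the present one, vq1 against Col at 21% oxygen, called 16 genes (0.0796%). In vq1vq10 against vq1 under hypoxia, 14 of these had the opposite sign, against 63.7% of all tested genes. Of the 16, 12 did so with an unadjusted p under 0.05, which 10.1% of all tested genes had in either direction. For 6 the opposite change was called, against 0.114% of all tested genes called in either direction. These were AT5G25520, AT2G31440, AT1G75945, ABCD2, AT1G09910 and AT5G27410. AT1G75945 was the largest, at 4.36 in vq1 against Col at 21% oxygen and -6.88 in vq1vq10 against vq1 under hypoxia. Other genes that set vq1 apart from Col did not differ detectably between vq1 and the double mutant. MRD1, a gene named for its response to methionine over-accumulation, gave -5.86 for vq1 against Col and 1.41 here (edgeR adjusted p = 0.45), with hypoxic means of 19.0 CPM in Col, 0.201 in vq1 and 0.544 in vq1vq10. The ARM repeat gene AT3G56210 gave 1.10 and 0.03 (edgeR adjusted p = 0.95), with 24.7, 55.4 and 56.4 CPM in the same order. QQS, an orphan gene known to affect starch content, gave -2.43 and -0.21 (edgeR adjusted p = 0.91). Over the 16747 genes with a mean of at least 1 on the log2 CPM scale, the log2 changes of both contrasts had a correlation across genes of -0.40. This is a description only, since genes are not replicates.

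The same genotype pair at 21% oxygen, in other libraries, called 24 genes (0.119%). Of these, 14 were also called under hypoxia, all in the same direction, which is 60.9% of the hypoxia calls and 58.3% of the normoxia calls. Of the 23 hypoxia calls 21 had the same sign at 21% oxygen, against 58.5% of all tested genes, and outside the run it was 16 of 18, 9 of them called. Genes called at both oxygen levels outside the run were AT5G24240, AT5G35940, AT1G09910, AT5G25520, AT2G31440, AT1G33055, ABCD2, AT1G75945 and AT5G27410. Of the genes called under hypoxia and not at 21% oxygen, CORI3 gave log2 differences of 2.04 there and 0.63 at 21% oxygen, AT1G63530 of 1.47 and 0.14, and AT1G33050 of 0.67 and -0.05. The test of the difference between the oxygen levels called 0 genes with edgeR and 0 with DESeq2. At an unadjusted p under 0.05 it held 746 genes (3.71%). The correlation was 0.31 across the 16744 genes outside the run with a mean of at least 1 on the log2 CPM scale.

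The vq10 label on the Col background, again in other libraries, separated 13 genes under hypoxia (0.0646%), 4 higher (0.0199%) and 9 lower (0.0448%). Without vq10 replicate 2, 11 genes were called, and without replicate 3, 10 genes. These libraries held 270 and 297 reads in the run, against 15 in replicate 1. Of the 23 genes called between vq1vq10 and vq1, 14 had the same sign in vq10 against Col, against 61.5% of all tested genes. Outside the run it was 9 of 18, near that background, and AT5G24240 was the 1 gene also called. A direct test of the difference between both contrasts called 7 genes (0.0348%), 4 of them, AT1G75945, AT5G25520, AT1G09910 and AT1G33055, also called between vq1vq10 and vq1. This test contains the vq1vq10 and vq1 libraries that gave the 23 calls. All 23 had the same sign in it, 22 with an unadjusted p under 0.05, so the shared calls are not separate evidence. AT5G25520 gave 0.64 on the vq1 background and -0.03 on Col, a difference of 0.67 ± 0.11 (edgeR adjusted p = 0.021). AT1G33055 gave 0.52 and -0.09, a difference of 0.62 ± 0.11 (edgeR adjusted p = 0.048; 0.070 with the replicate block). For both genes, then, the vq10 label went with a higher level on vq1 and with no detectable difference on Col. The number of genes is sensitive, at 3 without vq10 replicate 2 and 5 without replicate 3, and the correlation across the 16744 genes was 0.37.

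Genes of aliphatic glucosinolate synthesis, which turns chain-elongated methionine into defence compounds, were the list that stood highest in the double mutant. All 18 members had a positive log2 difference (47.8% of all tested genes), with a median of 0.99 against -0.01 over all tested genes. In 17 of 18 every vq1vq10 library was above every vq1 library (8.21% of all tested genes), and 16 had an unadjusted p under 0.05 in the higher direction (88.9%, against 4.74% of all tested genes). Of the members 1, BAT5, was called over all genes, and 3 were called with the replicate block: BAT5 (edgeR adjusted p = 0.0050), BCAT4 (0.040) and SOT17 (0.041). The list was chosen with results of these data known and its members share regulators, so its counts are not independent evidence of a direction.

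The difference was found along the pathway. Of the regulators, MYB28 had 22.8, 17.8 and 20.9 CPM in vq1 and 28.6, 27.5 and 32.0 CPM in vq1vq10 (0.52 ± 0.14, edgeR adjusted p = 0.17). MYB29, the second main regulator, gave 0.99 ± 0.30 without overlap, and MYB76, under 1 CPM in each of the 6 libraries, gave 0.26 ± 0.68 with overlap. At the entry to chain elongation, the methionine aminotransferase gene BCAT4 had 16.4, 11.3 and 9.29 CPM against 33.1, 25 and 27.1 CPM (1.20 ± 0.28, edgeR adjusted p = 0.12 without the replicate block). The isopropylmalate isomerase subunit gene IPMI2 had 14.5, 10.6 and 13.0 CPM against 28.6, 31.6 and 36.4 CPM (1.34 ± 0.31), whereas the large subunit gene IIL1 gave 0.25 ± 0.10. Both isomerase subunits thus differed in size, though not in sign. The methylthioalkylmalate synthase genes MAM1 and IMS2 (MAM3) gave 0.66 and 0.99, and the dehydrogenase gene IMD1 gave 0.96. In core synthesis, CYP79F1, which converts the elongated amino acids to aldoximes, had 7.55, 4.29 and 4.64 CPM against 20.6, 18.8 and 24.4 CPM, the largest difference of the list (1.95 ± 0.56, edgeR adjusted p = 0.23). The next enzyme, CYP83A1, had 40.5, 29.0 and 28.3 CPM against 65.2, 62.5 and 62.9 CPM (0.96 ± 0.28). The final sulfotransferase gene SOT17 had 5.50, 6.42 and 4.09 CPM against 16.0, 14.3 and 10.1 CPM (1.33 ± 0.28, edgeR adjusted p = 0.078 without the replicate block), and SOT18 gave 0.64. The side-chain S-oxygenase genes FMO GS-OX1 and FMO GS-OX3 gave 1.41 and 1.07.

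As a mean over the 18 genes on the log2 CPM scale, vq1 libraries were at 3.48, 3.24 and 3.24 and vq1vq10 libraries at 4.32, 4.23 and 4.35. Under hypoxia Col was at 3.48, 3.44 and 3.65 and vq10 at 4.34, 4.30 and 4.29. Under hypoxia the genotypes with the vq10 label were thus at one level and those without it at another, with no overlap. The label did not sort the genotypes at 21% oxygen, where Col was at 4.94, 4.44 and 4.18 and vq10 at 4.38, 3.79 and 4.31. There vq1 against Col had a median change of -0.86. Of the 18 members 16 were lower in it at an unadjusted p under 0.05, against 754 of the 20110 tested genes. At 21% oxygen vq1 and vq1vq10 overlapped, with 3.52, 3.26 and 4.24 in vq1 and 4.77, 4.00 and 3.82 in vq1vq10. The median change between this pair was 0.58, with 9 members higher at an unadjusted p under 0.05 (2.14% of all tested genes). For vq10 against Col under hypoxia the median was 0.71 with 13 such members (4.22% of all tested genes). When each of the 6 libraries was left out in turn, the median stayed between 0.94 and 1.17, with 13 to 16 members at an unadjusted p under 0.05.

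**Figure D4:**
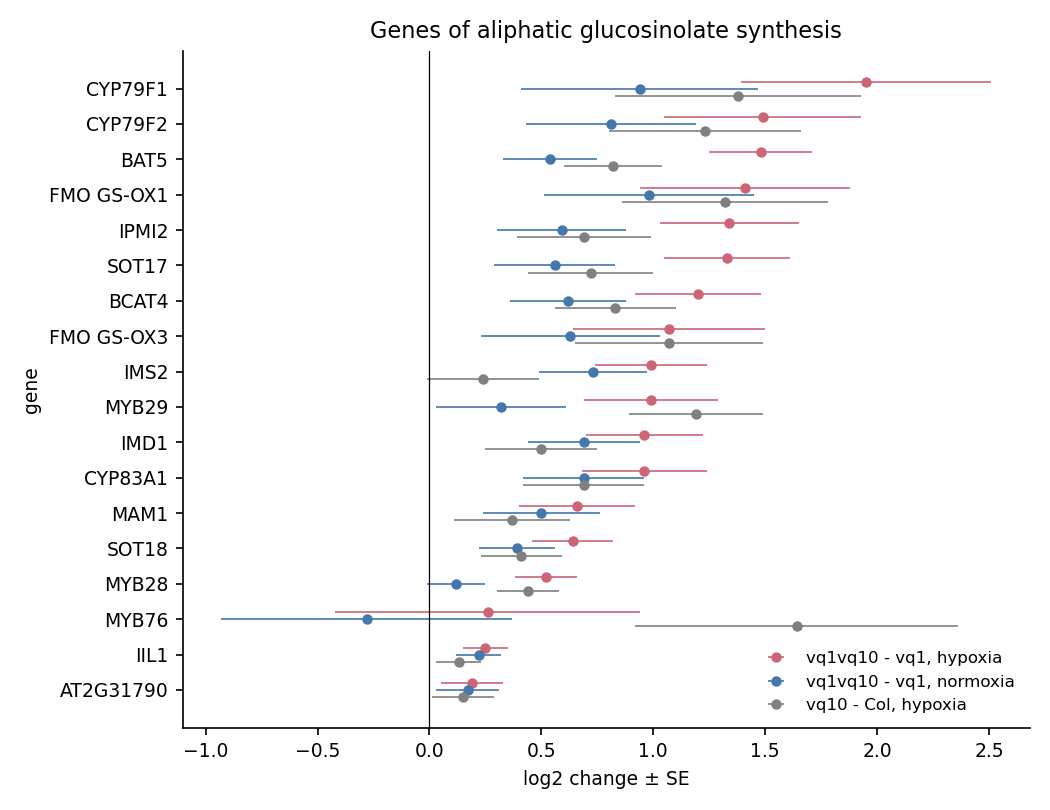
Log2 change ± SE (horizontal axis) of the 18 aliphatic glucosinolate genes (vertical axis) in vq1vq10 against vq1 under hypoxia (red), in the same pair under normoxia (blue) and in vq10 against Col under hypoxia (grey). All red points lie above 0, from 0.19 for AT2G31790 to 1.95 for CYP79F1.

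The branch that makes indole glucosinolates and camalexin from tryptophan gave smaller differences. Of 15 members 8 were higher (4.74% of all tested genes) and 0 lower at an unadjusted p under 0.05, with a median of 0.28 and none called. Only 4 were higher without vq1 replicate 3, vq1vq10 replicate 1 or vq1vq10 replicate 2, with 1 lower in the last case. The glucosyltransferase gene UGT74B1, shared by both branches, had 23.4, 28.5 and 18.0 CPM in vq1 and 40.7, 38.5 and 35.3 CPM in vq1vq10 (0.71 ± 0.17, edgeR adjusted p = 0.14; 0.041 with the replicate block). The aldoxime-forming CYP79B2 had 15.4, 29.5 and 11.1 CPM against 56.4, 37.7 and 18.8 CPM, with overlapping groups (1.01 ± 0.31, edgeR adjusted p = 0.27). PAD3, the last enzyme of camalexin synthesis, gave 0.14 ± 0.30.

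Most members of the core hypoxia response list had somewhat higher levels in the double mutant. Of 37 genes, 35 had a positive log2 difference (47.8% of all tested genes), with a median of 0.47. All vq1vq10 libraries lay above all vq1 libraries for 24 of them (8.21% of all tested genes). At an unadjusted p under 0.05, 17 members were higher and 0 lower (45.9%, against 4.74% of all tested genes), and 2, AT1G33055 and AT5G44730, were called. The haemoglobin gene HB1, whose product scavenges nitric oxide, had 133, 122 and 127 CPM in vq1 and 229, 218 and 194 CPM in vq1vq10 (0.75 ± 0.30, edgeR adjusted p = 0.40). The hypoxia-responsive universal stress protein gene HRU1 (AT3G03270) had 185, 178 and 168 CPM against 284, 245 and 231 CPM (0.52 ± 0.15, edgeR adjusted p = 0.25). The desaturase gene FTM1 had 236, 328 and 417 CPM against 647, 667 and 584 CPM (0.95 ± 0.62, edgeR adjusted p = 0.63). All 3 were higher in each vq1vq10 library, and none was called. Other strongly expressed members hardly differed: AT4G27450 gave 0.06 ± 0.12, LBD41 0.13 ± 0.15 and the repressor gene HRA1 (AT3G10040) 0.12 ± 0.14, and AT3G10020 was lower in every vq1vq10 library (-0.32 ± 0.16).

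As a mean over the 37 genes on the log2 CPM scale, vq1 was at 5.77, 5.82 and 6.05 and vq1vq10 at 6.29, 6.27 and 6.25, next to 5.92, 6.16 and 6.29 in Col. The vq1 and vq1vq10 libraries did not overlap, and the vq1 range and the vq1vq10 range both overlapped that of Col. The median was 0.24 for the same genotype pair at 21% oxygen and -0.00 for vq10 against Col under hypoxia, where 0 members had an unadjusted p under 0.05 in either direction (8.5% of all tested genes). The number of members at an unadjusted p under 0.05 rested in part on single libraries, with 9 without vq1 replicate 1 and 10 without vq1 replicate 2, while the median stayed between 0.42 and 0.51.

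Fermentation and sugar catabolism genes were mostly on the same side. Of 16 genes 13 had a positive log2 difference (47.8% of all tested genes), with a median of 0.28. At an unadjusted p under 0.05, 6 were higher (4.74% of all tested genes) and 0 lower. Without vq1 replicate 1 it was 2 higher and 1 lower, without vq1 replicate 2 it was 3 higher, and without vq1vq10 replicate 1 or 2 it was 4 higher. The alcohol dehydrogenase gene ADH1 had 843, 754 and 926 CPM in vq1 and 1230, 1140 and 1020 CPM in vq1vq10 (0.43 ± 0.28, edgeR adjusted p = 0.63). PDC1 (AT4G33070), pyruvate decarboxylase, had 364, 368 and 407 CPM against 527, 537 and 511 CPM (0.47 ± 0.19, edgeR adjusted p = 0.40). The alanine aminotransferase gene AlaAT1, which stores pyruvate carbon as alanine, had 263, 274 and 292 CPM against 396, 396 and 358 CPM (0.47 ± 0.10, edgeR adjusted p = 0.082; 0.044 with the replicate block). Each of the 3 was higher in all vq1vq10 libraries. Sucrose synthase SUS4 gave 0.50 ± 0.28 and the lactate dehydrogenase gene LDH (AT4G17260) 0.29 ± 0.13, the latter with overlap.

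Among the oxygen sensing genes, 3 of 15 were higher and 1 lower at an unadjusted p under 0.05 (4.74% and 5.37% of all tested genes). The median was 0.04. The group VII ERF gene EBP (RAP2.3) had 132, 122 and 137 CPM in vq1 and 223, 220 and 197 CPM in vq1vq10 (0.71 ± 0.20, edgeR adjusted p = 0.20). ERF71 (HRE2), another of the group, gave 0.71 ± 0.24, while ERF73 (HRE1) gave 0.04 ± 0.22. RAP2.12, a constitutive member of the group, had 96.2, 102 and 95.9 CPM against 87.1, 84.9 and 78.7 CPM and was lower without overlap (-0.23 ± 0.09, edgeR adjusted p = 0.38). Of the plant cysteine oxidases, which mark these factors for degradation, PCO2 (AT5G39890) gave 0.50 ± 0.16 and PCO1 (AT5G15120) 0.11 ± 0.22. The list was therefore mixed, and none of its members was called.

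Nuclear genes of photosynthesis, which encode antenna proteins, photosystem subunits and Rubisco, lay on the lower side by small amounts. All 26 members had a negative log2 difference (10492 of the 20110 tested genes), from -0.36 to -0.08 with a median of -0.26. All vq1vq10 libraries lay below all vq1 libraries for 18 of them (10.5% of all tested genes). At an unadjusted p under 0.05, 17 were lower (65.4%, against 5.37% of all tested genes), and none was called. LHCB6, an antenna protein of photosystem II, had 2180, 2060 and 1990 CPM in vq1 and 1660, 1610 and 1830 CPM in vq1vq10 (-0.29 ± 0.10, edgeR adjusted p = 0.31). Rubisco activase, RCA, had 11300, 11300 and 11500 CPM against 9410, 8740 and 10000 CPM (-0.28 ± 0.10, edgeR adjusted p = 0.37). For both, all vq1vq10 libraries were below all vq1 libraries. Antenna genes such as CAB2 and CAB1 are near-identical, at 96.1% over 823 aligned bases, and the authors' counting could split reads between them. The count depends on scaling and on single libraries: with total reads in place of TMM the median was -0.16, with 24 members negative and 7 at an unadjusted p under 0.05. Without vq1vq10 replicate 2 it was 3 members, without vq1 replicate 1 it was 6, without vq1vq10 replicate 1 it was 10 and without vq1 replicate 2 it was 11. The marker list of root tissue had a median of -0.01 and 0 of 6 members at an unadjusted p under 0.05 in either direction.

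Genes induced by sugar starvation and by darkness gave the same sign. All 15 members were negative (10492 of the 20110 tested genes), with a median of -0.31. Of these, 7 were lower at an unadjusted p under 0.05 (5.37% of all tested genes). All vq1vq10 libraries lay below all vq1 libraries for 9 (10.5%). ASN1, asparagine synthetase, had 1810, 1940 and 1840 CPM in vq1 and 1170, 1270 and 1420 CPM in vq1vq10 (-0.53 ± 0.18, edgeR adjusted p = 0.33). TPS11, of the trehalose phosphate synthase family, had 353, 317 and 335 CPM against 233, 223 and 229 CPM (-0.55 ± 0.16, edgeR adjusted p = 0.25; 0.084 with the replicate block). Both were lower in every vq1vq10 library without being called. The transcription factor gene bZIP1 gave -0.40 ± 0.17 and the dark-inducible gene DIN10 -0.31 ± 0.14. With total reads in place of TMM the median was -0.21 with 3 such members, and the number was 3 without vq1vq10 replicate 1 and 4 without vq1 replicate 2 or 3. For vq10 against Col the median was -0.26, and at 21% oxygen between the same genotypes it was -0.08.

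**Figure D5:**
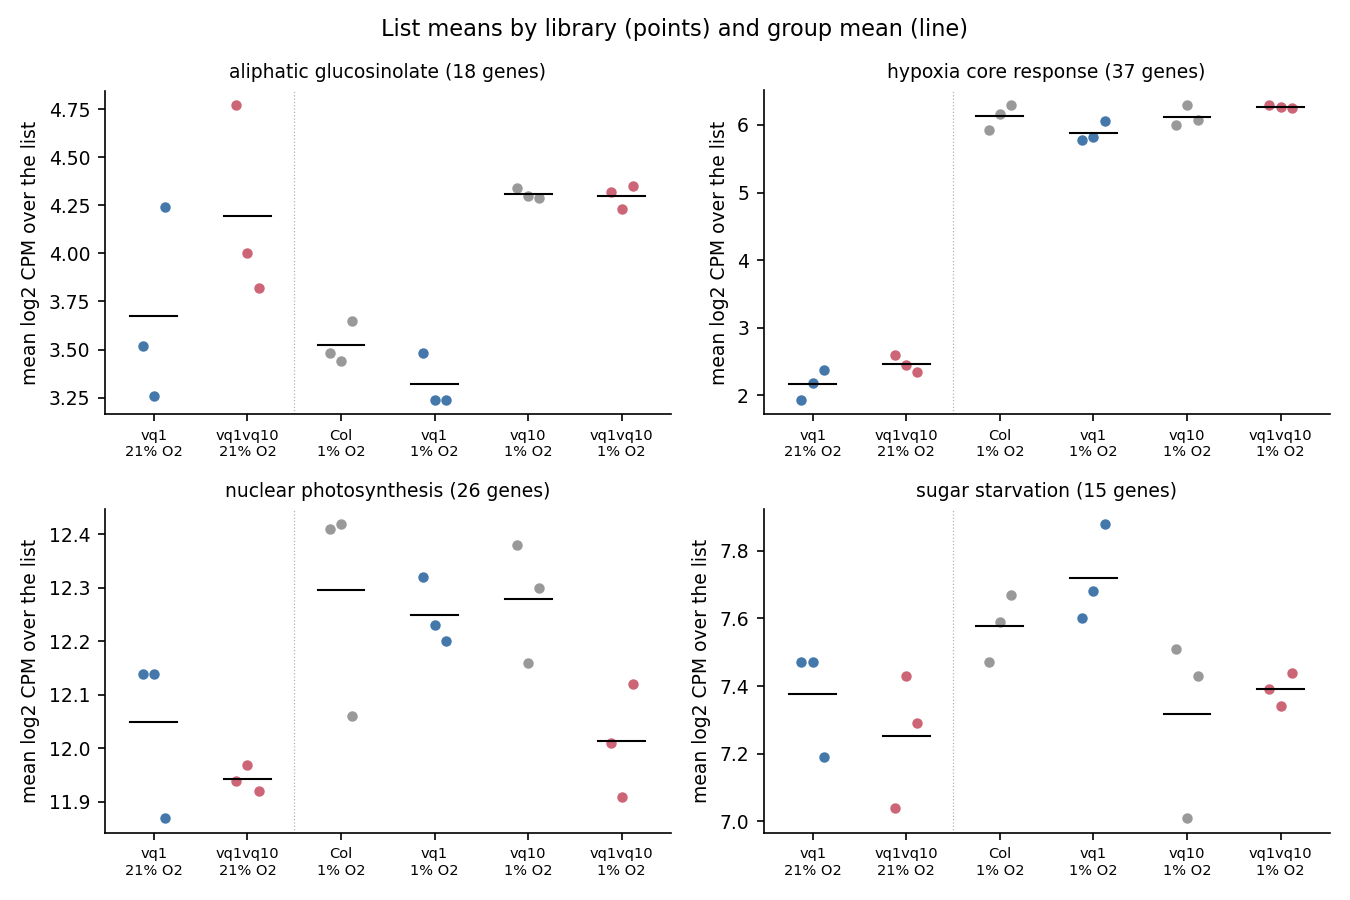
Mean log2 CPM over 4 gene lists (vertical axes, not starting at 0) in each library (points) with the mean of its group (line), for vq1 and vq1vq10 at 21% oxygen and for all 4 genotypes at 1% oxygen (horizontal axes). Under hypoxia the vq1vq10 points lie above the vq1 points for the aliphatic glucosinolate and hypoxia core lists and below them for the photosynthesis and sugar starvation lists.

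Iron genes lay on both sides. Of 18 members 5 were higher and 4 lower at an unadjusted p under 0.05 (4.74% and 5.37% of all tested genes), with a median of 0.13, and none was called. The higher side and the sign of the median rested on vq1vq10 replicate 3, without which 1 was higher and 4 lower with a median of -0.17, and 3 were higher without vq1 replicate 1 or 2. FRO2, the ferric chelate reductase, had 9.55, 15.7 and 27.0 CPM in vq1 and 2.77, 3.48 and 6.92 CPM in vq1vq10 (-1.99 ± 0.67, edgeR adjusted p = 0.32). IRT1, the iron transporter, had 19.8, 42.3 and 66.1 CPM against 7.85, 17.2 and 10.5 CPM (-1.85 ± 0.52, edgeR adjusted p = 0.21). CYP82C4, of coumarin synthesis, had 18.3, 16.5 and 16.4 CPM against 3.97, 5.76 and 4.06 CPM (-1.89 ± 0.50, edgeR adjusted p = 0.17). All 3 were lower in every vq1vq10 library, and at 21% oxygen they gave -0.48, -0.33 and -0.10. FER1, a ferritin that stores iron in plastids, had 373, 294 and 408 CPM against 145, 209 and 132 CPM and was called with the replicate block alone (-1.15 ± 0.43, edgeR adjusted p = 0.37 without it and 0.035 with it). On the higher side, the transcription factor gene BHLH100 of the iron shortage response had 0.770, 1.21 and 1.65 CPM against 1.52, 1.83 and 15.9 CPM (2.39 ± 0.95). Its groups overlapped, and vq1vq10 replicate 3 alone was high. The phloem transporter gene OPT3 was higher in all vq1vq10 libraries (0.58 ± 0.19, edgeR adjusted p = 0.30).

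The counts of the next 2 lists moved both ways with single libraries. Abscisic acid and drought genes had a median of -0.47, with 18 of 20 members negative (10492 of the 20110 tested genes). At an unadjusted p under 0.05, 4 were lower (5.37% of all tested genes). The stress-inducible gene HAI1, a phosphatase of abscisic acid signalling, had 23.1, 7.02 and 5.94 CPM in vq1 and 5.53, 4.94 and 6.04 CPM in vq1vq10, and vq1 replicate 1 alone was high. Without that library the median was -0.03, with 9 members positive and 0 lower, and without vq1vq10 replicate 2 it was 1 lower. The number rose to 9 without vq1 replicate 2, to 10 without vq1 replicate 3 and to 9 with the replicate block, with medians of -0.61, -0.66 and -0.38. Heat shock genes had a median of 0.53 with 4 of 20 higher (4.74% of all tested genes), and without vq1vq10 replicate 1 it was 0.11 with 0. Without vq1 replicate 3 it was 1 and without vq1 replicate 2 it was 2, but it was 8 without vq1 replicate 1, 9 without vq1vq10 replicate 3 and 7 with the replicate block, with medians of 0.84, 0.76 and 0.49. HSP101, the chaperone that resolves aggregates, had 17.0, 12 and 8.09 CPM in vq1 and 24, 20.6 and 13.5 CPM in vq1vq10 (0.65 ± 0.24, edgeR adjusted p = 0.36; 0.018 with the replicate block). Its groups overlapped, but each vq1vq10 library was above the vq1 library of the same number.

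The counts of the remaining lists were small and moved with single libraries. Salicylic acid genes had 1 of 18 higher, the marker PR1, with 4.67, 7.28 and 0 CPM in vq1 and 103, 12.6 and 3.18 CPM in vq1vq10 (3.31 ± 1.36, edgeR adjusted p = 0.42). Its high value was in vq1vq10 replicate 1, and the groups overlapped. Without vq1 replicate 2, 5 salicylic acid genes were higher with a median of 0.87 in place of 0.18, without vq1vq10 replicate 3 it was 3, and without vq1 replicate 1 or 3 or vq1vq10 replicate 1 it was 0. Jasmonate genes had 3 of 22 higher, WRKY genes 2 of 22, VQ family genes 2 of 28 and ethylene genes 3 of 19 with 1 lower, all at an unadjusted p under 0.05. Over all tested genes 4.74% were higher and 5.37% lower at that p. The shares of higher salicylic acid and VQ family genes, 5.56% and 7.14%, were near that background. For jasmonate the number of higher genes was 0 without vq1 replicate 3, 1 without vq1vq10 replicate 2 and 5 without vq1 replicate 2. Of the immune receptors, FLS2, which perceives flagellin, had 2.11, 4.40 and 2.60 CPM against 6.38, 8.69 and 6.41 CPM, higher without overlap (1.24 ± 0.31, edgeR adjusted p = 0.16; 0.022 with the replicate block). Its list, pattern-triggered immunity and touch, had 9 positive and 5 negative members, from -0.40 to 1.37. Of these 14, 2 were higher and 0 lower at an unadjusted p under 0.05, and none was called. The unfolded protein response and the cell cycle lists had 0 of 10 members each at that p. The flowering repressor gene FLC had 2.36, 2.12 and 1.55 CPM against 3.30, 3.48 and 4.01 CPM (0.84 ± 0.20, edgeR adjusted p = 0.15), but a noncoding RNA on the other strand covers it over 6067 bases, so its reads cannot be told apart from that partner's. Marker lists of root hairs (8 tested) and seeds (3 of 6 tested) had 0 members at that p. That of the stomatal lineage had 1 of 7 higher and that of senescence 1 of 6 lower. Of the 7 floral markers, FLC among them, 3 were tested and 1 was higher at that p, with log2 changes from -0.22 to 1.02.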

How the data were processed

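RNA-seq was done on whole seedlings, with libraries made with an MGIEasy kit, per the labels' protocols. Tools and build named in the submitters' processing notes are HISAT2 2.0.4, DESeq2 and TAIR10. The sources used here give neither the read counter nor its use of strand and of shared reads. The deposited files hold expected counts per gene, which need not be whole, beside TPM and FPKM columns, which were not used here.

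The deposited counts of 23929 genes were rounded to whole numbers and tested with edgeR 4.0.16 (R 4.3.3): TMM scaling, the filterByExpr filter (20110 genes kept), 1 mean per genotype and oxygen level over all 24 libraries, the quasi-likelihood test and Benjamini-Hochberg adjustment over all tested genes at 0.05. CPM values were computed from the counts and the TMM-scaled totals, and means of lists used log2 CPM with a prior count of 2. The error of a log2 change is its standard error, taken from the F statistic, with 3 libraries against 3. The biological coefficient of variation was 0.127. Floors of 3 reads per group and 95% intervals on ratios of reads cover counting error only.

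Replicates are independent biological replicates per the labels. Same-numbered libraries of vq1 and vq1vq10 under hypoxia deviated together from their group means (residual correlations 0.20, 0.25 and 0.15), so values with a replicate block stand beside the results they change. The block was thus chosen from the data. At 21% oxygen these correlations were 0.08, 0.15 and -0.09, and vq1vq10 replicate 1 with vq1 replicate 3 also gave 0.15. No pair of replicates within a group was a duplicate, and pairs from different groups were not checked for this. On simulated data with 20019 genes made for vq1vq10 against vq1 under hypoxia, 49.3% of genes changed 1.5-fold, 86.6% changed 2-fold and 100% changed 4-fold were recovered, with 14 false calls. The changes were planted in 67, 67 and 66 genes with an average log2 CPM above 1, and the spread was that of the fit. More genes were thus changed than the 23 called in the data, which makes the adjusted threshold easier to pass. The rates therefore do not tell how many real changes of these sizes went uncalled.

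Members and gene lists were chosen with earlier results of these data known. Genes named are VQ1, VQ10, the 12 most changed called genes in each direction whose average was 1 or more in log2 CPM with no overlap between groups, the lower direction filled up by p, up to 4 called or 2 most changed genes per list, and the 5 nearest genes to each side of VQ10 and VQ1. Called genes outside this rule (AT2G36580, ABCD2, AT1G75945 and AT5G27410) and further members of lists were named after their values were seen. Alternatives were DESeq2 1.42.0, RLE factors, total reads, no filter, no rounding, the compared libraries alone and each library left out. Upstream windows came from RefSeq TAIR10.1.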

Additional observations from a re-analysis of the deposited data

Results flagged for a closer look

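For 7 genes, adding the vq10 label to vq1 and adding it to Col gave different changes under hypoxia by edgeR's test of the difference, with adjusted p under 0.05. MRD1 had 19.8, 19.9 and 17.3 CPM in Col, 0.103, 0 and 0.499 in vq1, 0.0526, 0.236 and 0.208 in vq10 and 0.759, 0.229 and 0.646 in vq1vq10. All 3 mutant lines were low, so the change was -6.78 from Col to vq10 and 1.41 from vq1 to vq1vq10, a difference of 8.18 ± 0.80 on the log2 scale (edgeR adjusted p = 1.4e-05). AT3G56210 showed the mirror image, with 24, 26.4 and 23.8 CPM in Col and 52.7 to 62.3 CPM over the 9 libraries of the mutant lines, and a difference of -1.21 ± 0.13 (edgeR adjusted p = 2.1e-05). AT1G75945, which had its highest level in vq1, gave -8.94 ± 1.2 (edgeR adjusted p = 0.0021).

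AT5G25520 gave a difference of 0.67 ± 0.11, AT1G09910 of 0.85 ± 0.15 and AT1G33055 of 0.62 ± 0.11, with edgeR adjusted p of 0.021, 0.042 and 0.048. In these 3 genes the vq1 level was below the vq1vq10 level, while Col and vq10 did not differ detectably. ST2B (AT5G07000), a sulfotransferase gene, had 9.33, 8.12 and 8.29 CPM in Col, 13.3, 12.3 and 12.7 in vq10, 14.5, 15.4 and 9.64 in vq1 and 7.09, 9.43 and 9.27 in vq1vq10. It was higher in both single mutants than in Col and vq1vq10, and its difference was -1.19 ± 0.21 (edgeR adjusted p = 0.041). With the replicate block AT1G09910 had an adjusted p of 0.055 and AT1G33055 of 0.070.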

How the results depend on the processing

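For vq1vq10 against vq1 under hypoxia, the 23 called genes became 46 with the replicate block, 116 when fitted on the compared libraries alone (22 of the 23 among them), 76 with DESeq2 (21 of the 23, and no adjusted p for AT1G78420 and AT1G78460), 45 with total reads and 11 when a 2-fold change was also asked for. RLE factors gave 23, no filter 24, no rounding 21 and leaving out the run 18. With 1 library left out the range was 13 to 19, with 13 without vq1vq10 replicate 1 and 15 without vq1 replicate 2 or vq1vq10 replicate 2. Leaving out the run and using total reads were chosen after seeing the data. The same pair at 21% oxygen gave 24 genes, 27 with the block, 20 on the compared libraries, 31 with DESeq2 and 15 to 20 with 1 library left out, the 15 without vq1vq10 replicate 3. The vq10 label on Col gave 13 genes, 16 with the block, 6 on the compared libraries, 25 with DESeq2, 8 without the run and 10 to 14 with 1 library left out. The difference between both backgrounds gave 7 genes, 4 with the block, 3 on the compared libraries, 19 with DESeq2 and 3 to 5 with 1 library left out. The difference between oxygen levels stayed at 0 in all fits, with a smallest adjusted p of 0.14 under the block. The causes were not tested. Uncalled genes whose sign turned with 1 library left out, by their ranges, were BZIP60 (-0.16 to 0.02), BIP2 (-0.12 to 0.30), BCS1 (-0.02 to 0.74), PYK10 (-0.22 to 0.04), UBP15 (-0.02 to 0.11), ICR1 (-0.08 to 0.07), AT1G17160 (-0.13 to 0.00), GSTU25 (-0.13 to 0.73) and GSTU26 (-0.21 to 0.12). With total reads it was BZIP60 (0.03), AT1G17130 (0.03), AT1G17145 (0.02), AT1G17160 (0.05) and GSTU26 (0.07). ATGA2OX1, with 5 to 10 reads per vq1 library, shows the limit of depth: at 0 reads in vq1vq10 it was not called.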

Other observations

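Other lists held few members that stood out between vq1vq10 and vq1 under hypoxia at an unadjusted p under 0.05. At that p 4.74% of all tested genes were higher and 5.37% lower. Flavonoid and anthocyanin genes had 2 of 14 higher and 1 lower, clock genes 1 of 16 higher and 1 lower, genes of reactive oxygen 2 of 12 higher, genes of mitochondrial retrograde signalling 1 of 10 higher with a median of 0.26, cell wall and auxin genes 1 of 12 higher and nitrate and phosphate genes 3 of 10 higher. None of these members was called, and these counts moved with single libraries, for example to 4 for mitochondrial retrograde signalling without vq1vq10 replicate 3 and to 1 for nitrate and phosphate without vq1vq10 replicate 2. Of the 23 called genes 12 lay on chromosome 1, which held 26.4% of the tested genes, and 5 of these were in the run beside VQ10. Chromosome 2 held 4 called genes, chromosome 4 held 2 and chromosome 5 held 5. On chromosome 3, with 3965 of the tested genes, there were 0.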
